A study of Mus musculus with 4 samples.

Results

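Mitochondrially encoded genes were followed across 15 numbered cell clusters of differentiating mouse embryonic stem cells. The genes were taken by name, as the 10 genes of the authors' deposited marker table whose symbol starts with mt-, out of 1197 genes in that table. They account for 22 of its 2212 entries, 17 of them higher and 5 lower. Each entry sets the cells of 1 cluster against all other cells. The cells came from a directed cardiac differentiation profiled with 10x Genomics V2 droplet libraries. There were 4 libraries, 1 in each group: mesoderm with BRM knocked out, mesoderm with BRM intact (WT), cells at the cardiac stage with BRM knocked out, and WT cells at the cardiac stage. All 4 groups carried the BRG1 3XFLAG allele, and the labels do not say whether each line is 1 clone. BRM and BRG1 are alternative ATPases of the BAF chromatin remodelling complex. The table names no library, so no value below compares genotypes or stages, and with 1 library a group nothing was tested over samples. No depth or cell number is known. Clustering used the same cells and genes, so the values describe the clusters and carry no test.

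Mitochondria keep a small circular genome that encodes core subunits of the respiratory chain, a pair of ribosomal RNAs and a set of transfer RNAs. Both of its strands are transcribed as long precursors, which are cut at the transfer RNAs into separate messages and then given short poly(A) tails. All other subunits of the respiratory chain come from nuclear genes and are imported. Heart muscle is rich in mitochondria, and its cells carry much mitochondrial RNA. In droplet data a high mitochondrial share is also widely used as a sign of stressed or broken cells, and the labels do not say whether cells were filtered on it. Of the 37 genes of the mitochondrial genome, 10 were in the table: 9 of the 13 protein genes, 1 of the 2 ribosomal RNA genes and none of the 22 transfer RNA genes. The protein genes were mt-Nd1, mt-Nd2, mt-Nd4 and mt-Nd5 of complex I (NADH dehydrogenase), mt-Cytb of complex III (cytochrome b), mt-Co1, mt-Co2 and mt-Co3, the catalytic core of complex IV (cytochrome c oxidase), and mt-Atp6 of the ATP synthase. The ribosomal gene was mt-Rnr2, which gives the large (16S) ribosomal RNA.

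The libraries of this chemistry prime on poly(A), so the ends of the transcripts are where they are read. The last 60 bases of 6 members are shown for that reason, from the GENCODE M21 transcripts on GRCm38 (mitochondrial chromosome, plus strand), 5′ to 3′, with the stop codon, or the part of it that is encoded, in capitals.
mt-Co1: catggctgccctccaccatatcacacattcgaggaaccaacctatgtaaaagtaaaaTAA
mt-Co2: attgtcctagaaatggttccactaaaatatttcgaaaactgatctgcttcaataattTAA
mt-Co3: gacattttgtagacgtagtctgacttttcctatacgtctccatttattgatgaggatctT
mt-Cytb: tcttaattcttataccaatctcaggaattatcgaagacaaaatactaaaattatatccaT
mt-Nd4: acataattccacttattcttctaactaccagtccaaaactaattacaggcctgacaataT
mt-Atp6: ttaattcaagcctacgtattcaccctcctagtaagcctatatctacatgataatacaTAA
In mt-Co3, mt-Cytb and mt-Nd4 the genome supplies 1 base of the stop codon, and the poly(A) tail is known to complete it. The ribosomal transcript has no stop codon, and its longest run of A is 7 bases, 1181 bases before its end, shown in capitals with 20 bases on each side.
mt-Rnr2: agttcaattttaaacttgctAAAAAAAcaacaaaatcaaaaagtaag

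Near-identical copies of these genes lie in the nuclear genome, which limits what a count can mean. In the GENCODE M21 transcripts, 7 of the 10 members had an annotated pseudogene of at least 95% identity over at least 150 bases, and 4 had one of 100% identity. Those 4 were mt-Atp6 (Gm10925, 678 of 681 bases), mt-Co2 (Gm28661, 681 of 684), mt-Co3 (Gm28437, 783 of 784) and mt-Nd4 (Gm28439, 876 of 1378). The other pairs at this identity included mt-Co1 with Gm29216, at 99.8% over its last 483 bases. For mt-Cytb, mt-Nd1 and mt-Rnr2 no copy passed these limits. None of the 9 copies is in the marker table. Adjacent genes also overlap: mt-Atp6 shares 43 bases with mt-Atp8 and 1 base with mt-Co3, and mt-Nd4 shares 7 bases with mt-Nd4l. The labels do not say how reads that match a gene and its copy were counted, so the values of these members are uncertain to that extent.

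Detection divided the members more than any cluster did. Over all cells, worked out from the authors' deposited table and the solved cluster sizes, mt-Co3 was detected in 99.6% of cells, mt-Co1 in 99.4%, mt-Co2 in 97.9%, mt-Cytb in 95.9% and mt-Nd1 in 94.9%. Of the complex I genes, mt-Nd4 followed with 87.2%, mt-Nd2 with 68.6% and mt-Nd5 with 44.5%. The ribosomal gene mt-Rnr2 was detected in 52.8% of cells, and mt-Atp6 in 20.5%. The 2 neighbours mt-Atp6 and mt-Co3 thus stood at the bottom and the top of this order. Both have a nuclear copy of 100% identity, and the part of these copies in their detection was not tested. For the first 5 of these genes nearly every cell had a count, so their differences between clusters are differences of level and not of detection.

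Cluster 13 listed all 10 members as higher, and no other cluster listed more than 4. It was among the smallest clusters, with 0.498% of cells by the solved sizes. Of the 1197 genes in the table, 5.35% were listed higher there. The table itself fixes part of this count: mt-Nd1, mt-Nd2, mt-Nd5 and mt-Atp6 were listed for no other cluster, so these 4 are among the 10 members only because cluster 13 lists them. The other 6 members were also listed for at least 1 other cluster. The members' median fold was 2.46, against a median of 2.13 over all 64 genes listed higher in the cluster. Of the 10 members, 7 lay above that median. The 64 genes include the 10 members, and 4 of these are in the table only through their folds here, so the comparison is a description.

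**Figure D1:**
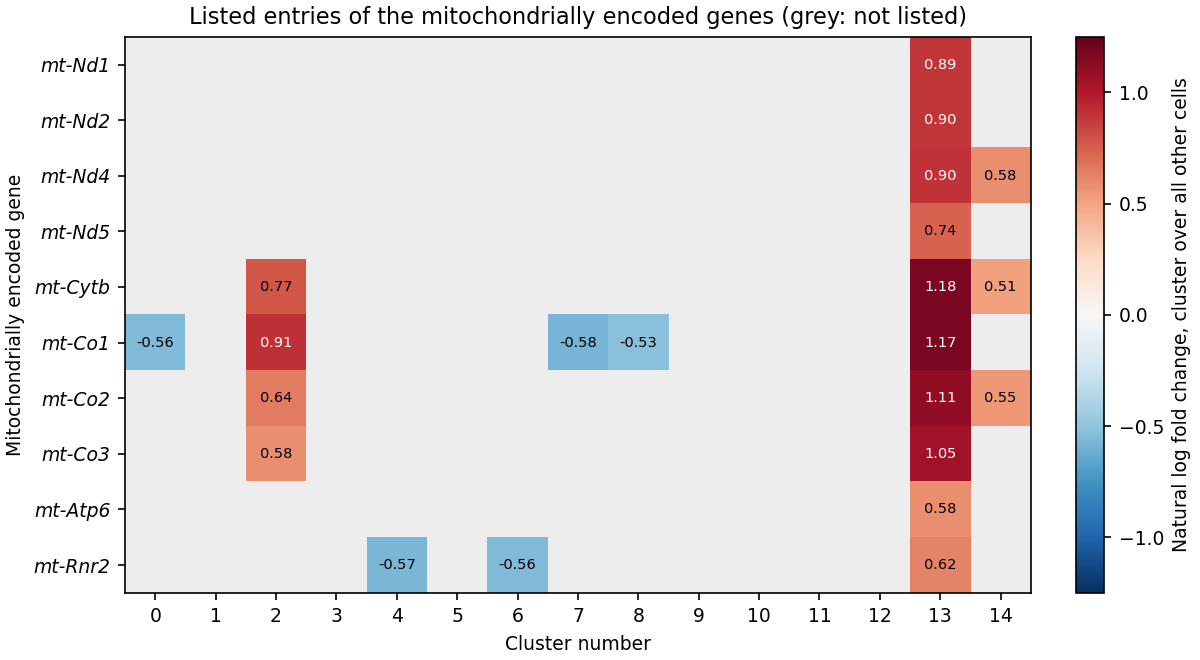
Log fold change, read as natural log (cluster over all other cells, colour and number), of the 10 members in the rows and the 15 clusters in the columns. Values are from the authors' deposited table, with grey where a gene is not listed. The column of cluster 13 is filled for all 10 members, cluster 2 for 4 and cluster 14 for 3, and the 5 lower entries belong to mt-Co1 and mt-Rnr2.

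The respiratory subunits of complexes III and IV had the largest folds in cluster 13. Per the authors' deposited table, mt-Cytb was 3.25-fold higher, with detection in 99.4% of its cells against 95.9% of other cells. For mt-Co1, which carries the site where oxygen is reduced, the fold was 3.23, with detection in 100% of its cells against 99.3% of other cells by the authors' deposited table. Copper-binding subunit gene mt-Co2 was 3.03-fold higher, detected in 100% of its cells against 97.9% of other cells, per the authors' deposited table. With 2.85-fold, mt-Co3 completed the 3 mitochondrially encoded complex IV genes, detected in 100% of its cells against 99.6% of other cells by the authors' deposited table. These 4 genes ranked 8, 9, 12 and 17 among the 64 genes listed higher in cluster 13.

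Complex I genes were next and lay close together. According to the authors' deposited table, mt-Nd4 was 2.47-fold higher, mt-Nd2 2.45-fold, mt-Nd1 2.45-fold and mt-Nd5 2.09-fold. Here detection moved too: mt-Nd2 was found in 87.7% of its cells against 68.5% of other cells, and mt-Nd5 in 64.2% against 44.4%, per the authors' deposited table. The gene mt-Nd4, which shares 7 bases with mt-Nd4l on the same strand, was detected in 96.6% of its cells against 87.2% of other cells by the authors' deposited table. For mt-Nd1 the shares were 98.9% inside and 94.9% outside by the authors' deposited table.

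The ribosomal RNA and the ATP synthase gene had the smallest folds of the 10 in cluster 13. By the authors' deposited table, mt-Rnr2 was 1.86-fold higher, detected in 58.1% of its cells against 52.8% of other cells. The proton channel subunit gene mt-Atp6 was 1.78-fold higher there, with 34.1% of its cells against 20.4% of other cells, per the authors' deposited table. The 3 members detected in the fewest cells, mt-Nd5, mt-Rnr2 and mt-Atp6, therefore had the 3 smallest folds. Seurat adds a constant to each mean before it takes the log, of a size that the header does not state. It shrinks the fold of weakly detected genes, so the order of folds between members of unlike detection is not an order of true change.

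**Figure D2:**
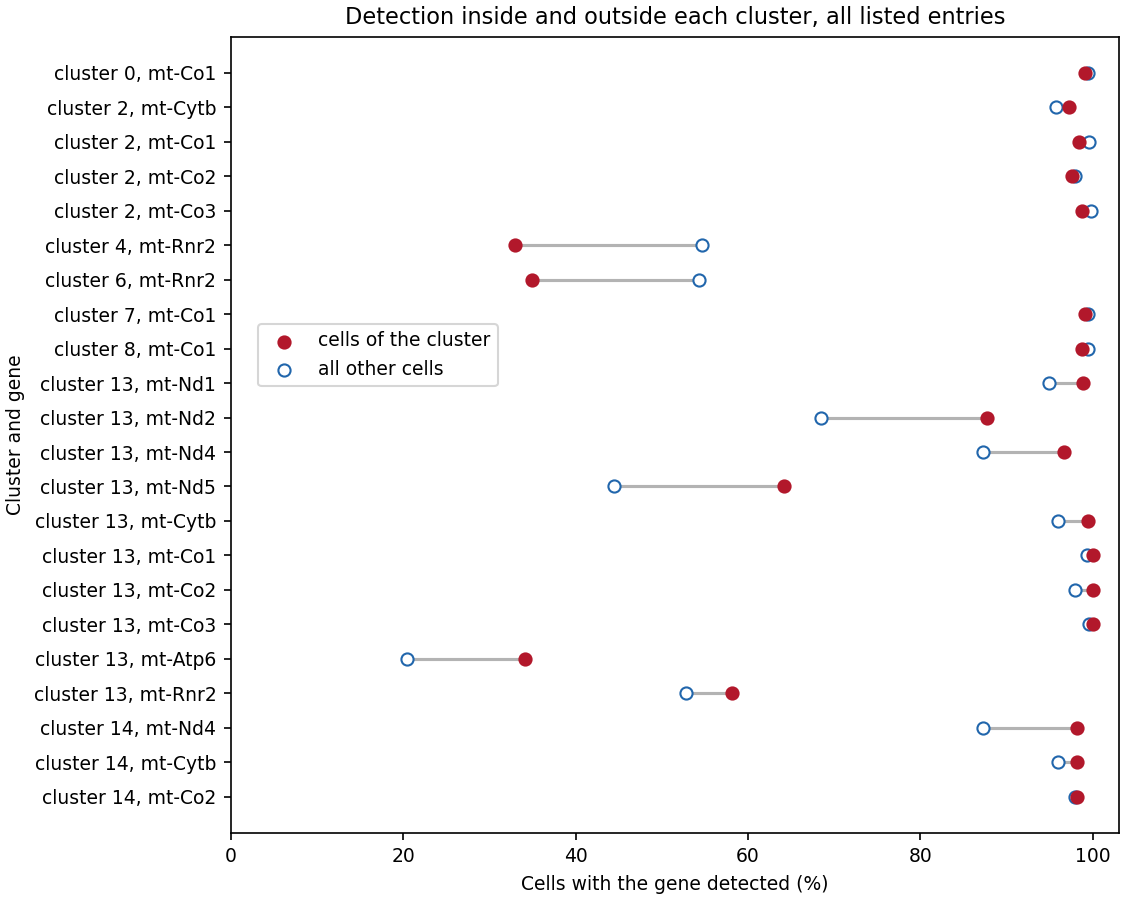
Percent of cells with the gene detected inside the cluster (filled points) and in all other cells (open points), for the 22 listed entries by the authors' deposited table, grouped by cluster down the page. All 10 entries of cluster 13 lie higher inside, and mt-Rnr2 in clusters 4 and 6 lies lower inside, at 33% and 34.9%.

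Cluster 2, with 12.6% of cells, listed 4 members as higher, those of complexes III and IV. It was cardiomyocyte-like: all 15 cardiomyocyte markers in the table were listed higher there. The 4 members are 40% of the 10, beside 22.7% of all table genes listed higher. Per the authors' deposited table, mt-Co1 was 2.48-fold higher, mt-Cytb 2.17-fold, mt-Co2 1.89-fold and mt-Co3 1.78-fold. The members' median fold of 2.03 lay below the median of 2.30 over the 272 genes listed higher in the cluster. Their detection had little room to follow the level, at 95.7% (mt-Cytb) to 99.8% (mt-Co3) of other cells by the authors' deposited table. According to the authors' deposited table, mt-Co1 was undetected in 1.6% of its cells against 0.5% of other cells, and mt-Co3 in 1.3% of its cells against 0.2% of other cells. For mt-Co2 the undetected shares were 2.4% inside and 2.1% outside, and for mt-Cytb, the only 1 of the 4 detected in more cells inside, 2.8% inside and 4.3% outside, per the authors' deposited table. The median difference of detection, inside minus outside, was -0.7 percentage points for these 4 members and 29.3 over all genes listed higher in cluster 2. With detection outside already so high, the first value could not come near the second.

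No complex I member was listed for cluster 2. A gene is absent from the table where its fold is under 1.65 in either direction, where both shares of cells are under 25%, or where its p-value is large (the largest in the table is 0.00755). The genes mt-Nd1, mt-Nd2, mt-Nd4 and mt-Nd5 pass the detection limit. Their level in cluster 2 therefore lay between 0.638 and 1.52 of the mean of all cells, unless the p-value kept them out. These limits hold with the added constant left in both means, so a weakly detected gene such as mt-Nd5 may lie outside them without it. For mt-Atp6, detected in under 25% of cells, no such range could be set.

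To put clusters on a common scale, each fold was turned into the level of the cluster relative to the mean of all cells, with the solved cluster sizes. On that scale mt-Co1 had its highest level, 3.20, in cluster 13, followed by 2.09 in cluster 2. Among the 5 clusters that listed it, the lowest levels were 0.615 in cluster 0, 0.606 in cluster 8 and 0.579 in cluster 7. The 10 clusters that did not list it averaged 0.939. This average and those below are weighted by the solved cluster sizes, so large clusters count most. The limits leave single clusters room down to 0.607 (cluster 14), so the order at the bottom is not known for all clusters. Between clusters 0, 7 and 8 the levels spread over 0.0355, and no error over libraries can be given for them. For mt-Cytb the order was 3.21 in cluster 13, 1.89 in cluster 2 and 1.67 in cluster 14, with an average of 0.855 over the 12 other clusters. For mt-Co2 it was 3.00, 1.70 and 1.72 in clusters 13, 2 and 14, with clusters 2 and 14 hardly apart, and 0.884 on average elsewhere. The level of mt-Co3 was 2.82 in cluster 13 and 1.62 in cluster 2, with 0.899 on average over the other 13.

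**Figure D3:**
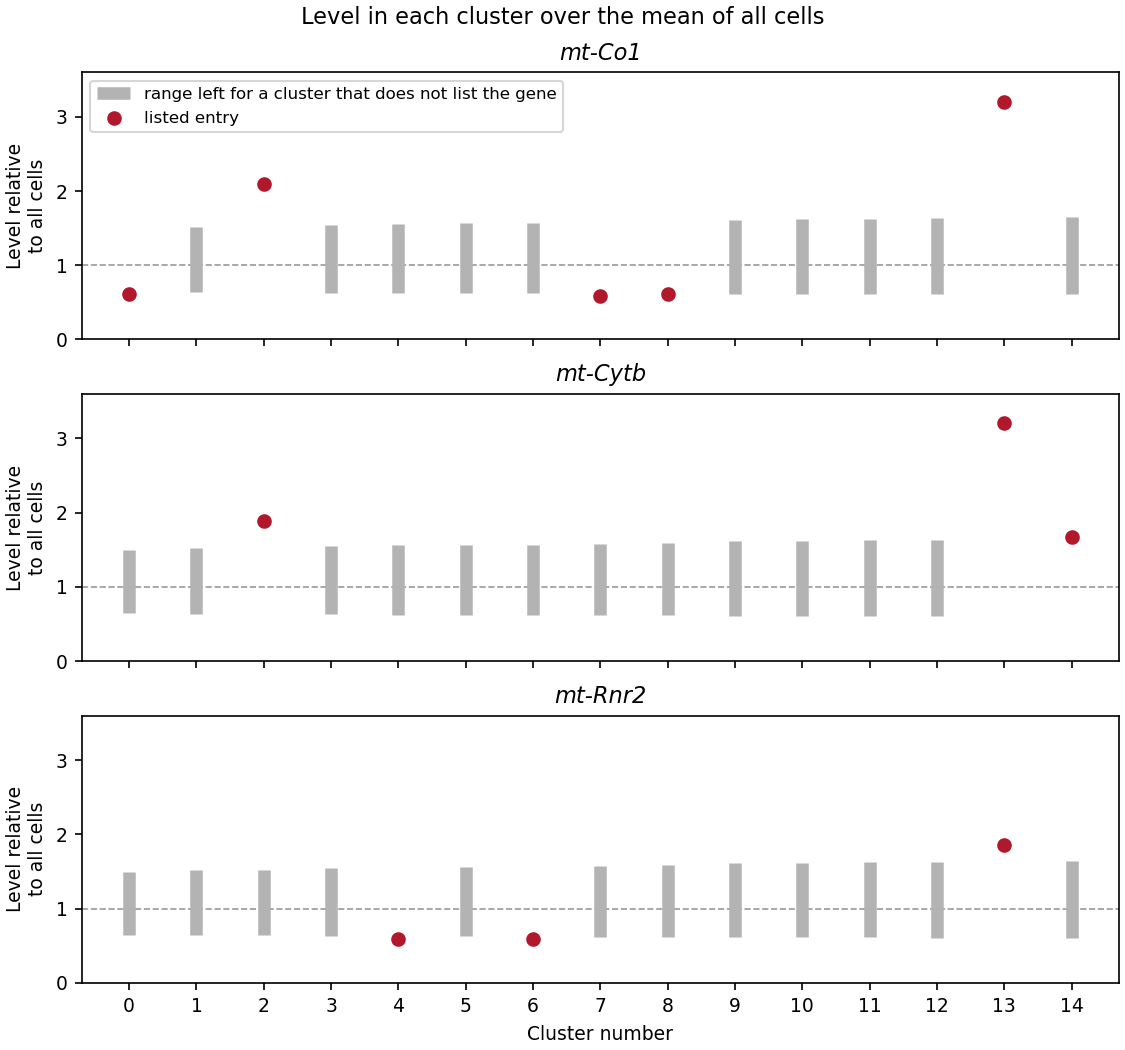
Level relative to the mean of all cells (dashed line at 1) in each of the 15 clusters for mt-Co1, mt-Cytb and mt-Rnr2, with points for listed entries and grey bars for the range left to a cluster that does not list the gene. Cluster 13 is the highest point in all 3 panels, at 3.20, 3.21 and 1.86.

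The 3 entries in which mt-Co1 was listed lower passed the table's limit only with cluster 2 among the other cells. By the authors' deposited table, mt-Co1 in cluster 0 was lower by 1.74-fold, in cluster 7 by 1.78-fold and in cluster 8 by 1.69-fold. Of all table genes, 3.76%, 2.84% and 4.26% were listed lower in these clusters. With cluster 2 left out of the other cells, mt-Co1 was still lower in all 3. The folds worked out from the authors' deposited table were then 1.45, 1.49 and 1.42, all under the table's limit of 1.65. Detection was nearly the same on both sides by the authors' deposited table, at 99.1% of its cells against 99.4% of other cells in clusters 0 and 7 and 98.7% against 99.4% in cluster 8. Among fixed markers, cluster 8 had 4 of the 5 pluripotency markers listed higher, and clusters 0 and 7 listed no cell type marker as higher. All 3 clusters also listed the nuclear-retained RNA Malat1 as lower, and the part of RNA quality in these entries was not tested.

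The ribosomal gene mt-Rnr2 was listed lower in clusters 4 and 6 and nowhere else. Per the authors' deposited table, it was 1.76-fold lower in cluster 4, where 33% of cells detected it against 54.7% of other cells. It was 1.74-fold lower in cluster 6, with 34.9% of its cells against 54.3% of other cells, per the authors' deposited table. The shares of all table genes listed lower were 2.42% and 2.17%. Both clusters listed Sox2, 1 of the 3 neural progenitor markers in the table, as higher, at 1.88-fold and 2.45-fold by the authors' deposited table. Neither listed the other markers, Rax and Lhx2. Cluster 1, which did not list mt-Rnr2, listed all 3 as higher. Cluster 6 also listed the endoderm marker Foxa2 as higher, at 1.66-fold by the authors' deposited table. On the level scale mt-Rnr2 stood at 0.589 and 0.593 of the mean of all cells in clusters 4 and 6, and at 1.86 in cluster 13. No protein-coding member was listed for clusters 4 and 6, which leaves mt-Co1 in cluster 4 a level of at least 0.628. The level of mt-Rnr2 itself rests on the constant added before the log: with a constant of 1 at a mean level of 1, chosen after seeing the data, it would be 0.177 in cluster 4 and 0.186 in cluster 6. Whether the ribosomal and protein-coding transcripts differ there cannot be read from these values.

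Cluster 14, the smallest with 0.290% of cells, listed 3 members as higher, and at 30% against 26.2% of all table genes this is near the background. According to the authors' deposited table, mt-Nd4 was 1.79-fold higher, mt-Co2 1.73-fold and mt-Cytb 1.67-fold, each detected in 98.2% of cells inside. All 3 lay below the median of 2.11 over the 314 genes listed higher there. This cluster listed the endoderm markers Ttr, Apoe, Sox17 and Gata4 as higher. Levels in cluster 13 over cluster 14 were 1.93 for mt-Cytb, 1.74 for mt-Co2 and 1.37 for mt-Nd4.

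Cluster 13 and cluster 2 shared heart genes, and the members stood apart from them in a comparison made after the values were seen. Cluster 13 listed 13 of the 15 cardiomyocyte markers as higher, among them Myl7, Tnnt2 and Nkx2-5. Most of its cells had no count for these markers: by the authors' deposited table, Myl7 was detected in 49.7% of its cells, the largest share of the 13, and Nkx2-5 in 25.7%, the smallest. In cluster 2 the shares were 98.4% for Myl7 and 60.6% for Nkx2-5, per the authors' deposited table, whereas the 4 members listed for both clusters were detected in at least 97.2% of cells in each. Of the 57 genes listed higher in both clusters, the 4 members had a higher level in cluster 13 than in cluster 2, and the other 53 genes had a lower one. Among the 22 genes listed lower in both, 20 also had a higher level in cluster 13, at ratios up to 3.14. The level in cluster 13 over that in cluster 2 was 1.77 for mt-Co2, 1.74 for mt-Co3, 1.70 for mt-Cytb and 1.53 for mt-Co1. Over the 13 cardiomyocyte markers the same ratio ran between 0.362 and 0.634, with a median of 0.526. For the 7 nuclear respiratory chain and ATP synthase genes it ran between 0.637 and 0.979, with a median of 0.923. Another gene of this list, Atp5k, had a level of 1.72 in cluster 13 and was not listed for cluster 2, so it has no such ratio. The direction of these ratios does not depend on the constant added before the log, since it is the same in both clusters.

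**Figure D4:**
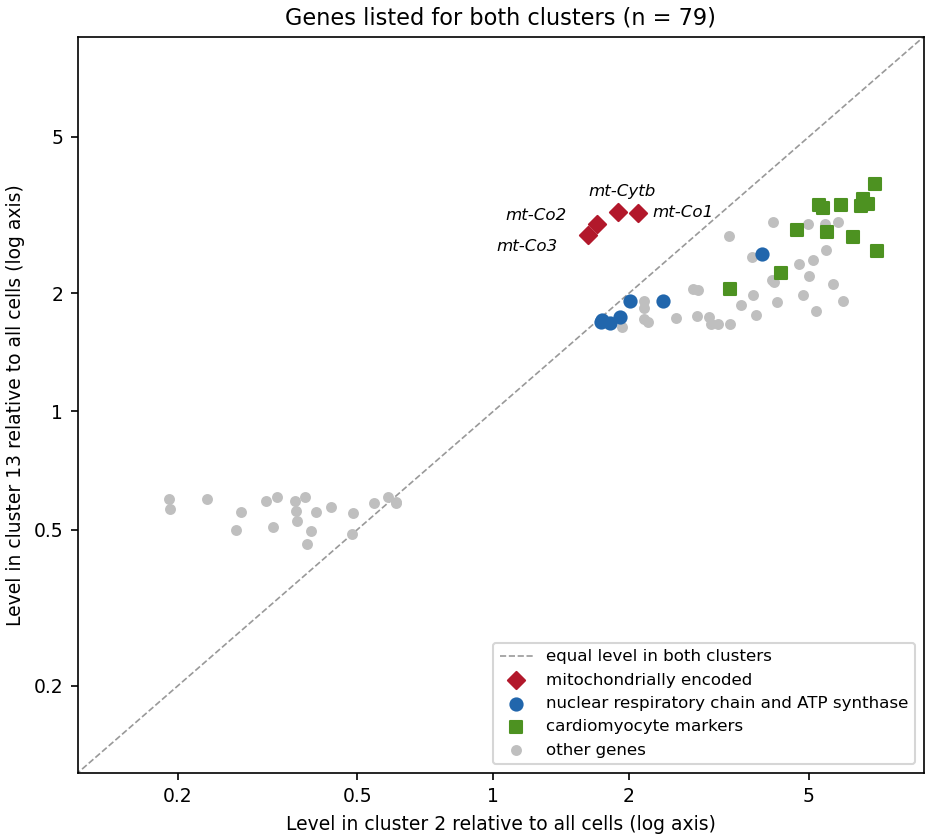
Level relative to all cells in cluster 13 (vertical, log axis) and cluster 2 (horizontal, log axis) for the 79 genes listed for both, with the dashed line at equal levels. The 4 mitochondrially encoded genes lie above the line, and the 7 nuclear respiratory chain and ATP synthase genes and the 13 cardiomyocyte markers lie below it. Of the 22 genes listed lower in both clusters, 20 also lie above the line and 2 below it.

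The nuclear partners of the members were listed mostly for cluster 2. Of the 99 symbols listed for complexes I to IV, cytochrome c and the ATP synthase, older and current names together, 41 were in the table. Cluster 2 listed 39 of the 41 as higher, 95.1% against 22.7% of all table genes, and cluster 13 listed 8, 19.5% against 5.35%. These shares are partly fixed by the table too, since 31 of the 41 genes are in it only because cluster 2 lists them as higher, and 1, Atp5k, only because cluster 13 does. By complex, cluster 2 listed 9 of 10 complex I genes, all 8 complex III genes, all 10 complex IV genes and 9 of 10 ATP synthase genes as higher. For cluster 13 the counts were 1, 2, 3 and 2.

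Folds of both genomes' subunits are given side by side for each complex. For complex IV in cluster 13, the 3 mitochondrially encoded genes were 2.85-fold to 3.23-fold higher, and the 3 nuclear genes listed, Cox6a2, Cox6a1 and Cox6c, were 2.53-fold, 1.70-fold and 1.68-fold higher, per the authors' deposited table. Cox6a2 is the heart and skeletal muscle form of its subunit. In cluster 2 the mitochondrially encoded complex IV genes were 1.78-fold to 2.48-fold higher, and the 10 nuclear ones 1.66-fold to 6.90-fold, led by Cox6a2, with a median of 2.07, per the authors' deposited table. For complex I in cluster 13, the 4 mitochondrially encoded genes were 2.09-fold to 2.47-fold higher and the only nuclear gene listed was Ndufb9, at 1.92-fold, per the authors' deposited table. In cluster 2, 9 nuclear complex I genes were 1.70-fold to 2.35-fold higher and no mitochondrially encoded one was listed, per the authors' deposited table. The level left to those unlisted genes, up to 1.52, comes close to the lowest nuclear level there, 1.56 for Ndufc1, so no difference between the genomes can be read from the listing. Complex III had mt-Cytb at 3.25-fold beside Uqcrq at 1.92-fold and Uqcr11 at 1.71-fold in cluster 13, per the authors' deposited table. In cluster 2, mt-Cytb at 2.17-fold stood among 8 nuclear complex III genes at 1.66-fold to 2.98-fold, per the authors' deposited table. Detection differs between these genes, so their folds give no order of true change, and no difference between genes was tested.

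**Figure D5:**
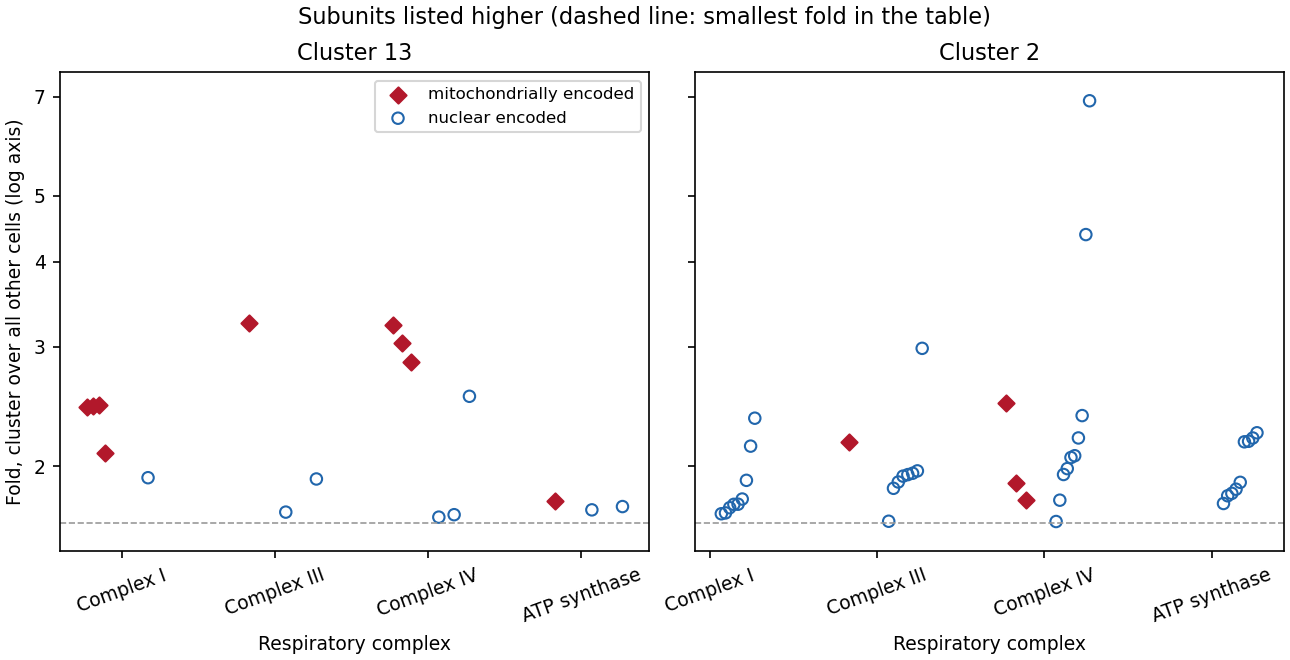
Fold over all other cells (log axis) of subunits listed higher in cluster 13 (left) and cluster 2 (right), by complex, with diamonds for mitochondrially encoded and open circles for nuclear-encoded genes, from the authors' deposited table. In cluster 13 the complex IV diamonds lie between 2.85 and 3.23, above the circles, and in cluster 2 they lie between 1.78 and 2.48, among them.

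Other mitochondrial gene lists were counted in the same way. Of 10 carrier, energy metabolism and creatine kinase genes in the table, cluster 2 listed 8 as higher, beside 22.7% of all table genes. Slc25a4, the heart form of the carrier that exchanges ADP and ATP across the inner membrane, was 3.12-fold higher in cluster 2 by the authors' deposited table. Cluster 0 had it 1.85-fold lower and cluster 8 2.61-fold lower, both of which listed mt-Co1 as lower, and cluster 3, which did not list mt-Co1, had it 1.88-fold lower, per the authors' deposited table. Of 4 mitophagy and mitochondrial dynamics genes, cluster 2 listed 3 as higher and cluster 13 listed 2 (22.7% and 5.35% of all table genes), with Chchd10 at 7.74-fold in cluster 2 and 3.07-fold in cluster 13 by the authors' deposited table. Only 1 of the 23 genes of mitochondrial DNA expression and biogenesis was in the table: Ssbp1, which binds single-stranded mitochondrial DNA, was 1.89-fold lower in cluster 2 by the authors' deposited table. Tfam, which packages mitochondrial DNA, Polrmt, which transcribes it, and Ppargc1a, which drives the making of mitochondria, were not listed for any cluster. A gene detected in under 25% of cells on both sides cannot be listed, so these absences do not show an even level. Of 17 glycolysis genes, 14 (82.4%) were listed higher in cluster 2, and in cluster 13 only Pgam2 was, a share of 5.88% that is near the 5.35% of all table genes. Part of these cluster 2 counts is fixed by the table. The glycolysis genes Tpi1, Hk1, Aldoc, Pfkp and Eno3 are in it only because cluster 2 lists them as higher. So are Cs, Vdac1, Acadm and Idh3a of the carrier list and Bnip3l of the mitophagy list. Cluster 14 listed 1 glycolysis gene as higher and 6 (35.3%) as lower, and clusters 5 and 10 listed 9 (52.9%) and 7 (41.2%) as lower, beside 9.19%, 4.26% and 4.09% of all table genes.

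Signs of RNA quality and stress were set beside the members. In cluster 13, 1 of 5 stress genes in the table was listed higher (20%, beside 5.35% of all table genes). That gene was Hspb1, at 2.22-fold by the authors' deposited table, which is also abundant in heart muscle. Hspb1 was listed higher in cluster 2 too, where its level relative to all cells was 5.02, against 2.21 in cluster 13. Another stress gene, Hsp90aa1, was 2.31-fold lower in cluster 2 by the authors' deposited table. None of 4 apoptosis and p53 target genes, of 3 nuclear-retained RNAs and of 13 ribosomal protein genes in the table was listed for cluster 13 in either direction. Only 88 of the 1197 table genes were listed for cluster 13 in either direction, so these absences say little about stress there. Detection inside minus outside had a median of 17.3 percentage points over the 64 genes listed higher in cluster 13, against 29.3 in cluster 2 and 32.7 in cluster 14. No erythroid or endothelial marker was in the table. In cluster 2, 10 of the 13 ribosomal protein genes were listed lower, beside 308 of the 1197 table genes. The nuclear-retained RNAs Malat1 and Meg3 were 2.66-fold and 2.02-fold higher there by the authors' deposited table. Of the 4 apoptosis and p53 target genes, cluster 2 listed 3 (75%) as higher, beside 22.7% of all table genes. These were Cdkn1a at 3.88-fold, Ccng1 at 3.13-fold and Phlda3 at 2.39-fold, per the authors' deposited table. Cluster 14 listed the same 3 as higher, at 1.71-fold to 1.84-fold by the authors' deposited table, beside 26.2% of all table genes. It listed Malat1 and Meg3 as lower, at 1.67-fold and 2.02-fold, according to the authors' deposited table. Both clusters listed the fourth, Trp53, as lower. The part of RNA quality in the mitochondrial values was not tested.

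Likeness to the members was measured over combinations of cluster and direction. Only 1 combination of cluster and direction, higher in cluster 13, held for at least 5 of the 10 members, so likeness was measured against that alone. It was shared by 54 other genes. Atp5k, a nuclear ATP synthase subunit gene, was the only other gene listed higher in cluster 13 and for no other cluster, with a Jaccard index of 1 and a fold of 1.72 by the authors' deposited table. Next came Csrp3, Cox6a2, Actc1 and Cryab, each with an index of 0.5, since cluster 2 listed them as well. In all, 36 other genes were listed higher in clusters 13 and 2 and nowhere else, which is the pattern of the member mt-Co3. For mt-Co1, the member listed for the most clusters, the closest genes were looked up after its values were seen. Eif4a2, Cfl2, Slc25a4, Malat1 and 3632451O06Rik each had an index of 0.5 with its 5 combinations. Malat1 was listed in the same direction as mt-Co1 in 4 of them, lower in clusters 0, 7 and 8 and higher in cluster 2, and it was also listed for clusters 3, 10 and 14, which did not list mt-Co1. Its folds were 2.40, 2.59 and 2.13 lower and 2.66 higher by the authors' deposited table. An index over so few combinations is a description of this table.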

How the data were processed

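Single cells were profiled in 4 libraries, 1 per group, so no replicate or test over samples exists. Cell Ranger, Seurat and mm9 are named by the submitters' processing notes; versions, scaling, cell filters, doublet treatment and which libraries were clustered: not given in the sources used here. Natural log fold changes of 15 clusters against all other cells were deposited, per the file headers, except that the base is inferred here. The headers name a log fold change without its base, and the natural base was taken from the counts that follow. Of 139 genes, 1 broke the limits that the table sets under the natural base, 6 under base 2 and 45 under base 10. Deposited shares of cells are fractions, printed as percent. Deposited p-values compare cells, which are not replicates, and served only in alternatives; the adjusted ones are multiplied by 37991. Folds are exponentials of the deposited values, so each rests on the natural base.

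Cluster sizes were solved by least squares from detection shares of 401 genes, members left out (residual SD 0.0229 percentage points, sum held at 100%). A fold F in a cluster of size w gives a level of F / (1 + w (F - 1)) relative to all cells, with the added constant left in both means. The size step was tested on simulated shares without sampling noise. The level formula follows from the sizes, so the same simulation could not test it. Members and lists were chosen with earlier results of these data known. Named are the members, the leading genes of the lists by absolute fold, the 5 most alike genes by Jaccard index, and others chosen after their values were seen (Malat1, Slc25a4, Ssbp1 and the genes closest to mt-Co1). Alternatives changed limits of fold, p-value and detection, the log base, the genes behind the sizes, the added constant and the other cells. Copies were searched with blastn against GENCODE M21 transcripts, whose build (GRCm38) is not that of the study, so no coordinates are given. Python 3.11.15, numpy 2.4.6, pandas 2.3.3 and matplotlib 3.10.9 were used. A result on 1 gene is not reported here.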

Additional observations from a re-analysis of the deposited data

How the results depend on the processing

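No paired analysis was possible because the result comes from a table of clusters with no samples, and there was no replicate to leave out. At a log fold change of at least 0.75, cluster 13 kept 7 of 10 members, cluster 2 listed 2 of its 4, and cluster 14 and the lower entries listed 0 of 3 and 0 of 5. At least 1 left 4, 0, 0 and 0. The nuclear respiratory chain and ATP synthase counts became 13 in cluster 2 and 1 in cluster 13 at 0.75, and 5 in cluster 13 with adjusted p under 0.05, where the members of cluster 13 stayed at 10. The median log fold change of members listed at 0.75 or more was 0.84 in cluster 2, against 0.71 without that limit, and 1.05 in cluster 13, against 0.90. Leaving cluster 2 out of the other cells gave mt-Co1 log fold changes of -0.37, -0.40 and -0.35 in clusters 0, 7 and 8. Base 2 logs gave median levels of 1.51, 1.86 and 1.46 in clusters 2, 13 and 14, against 1.79, 2.44 and 1.72; a constant of 1 at a mean level of 1, chosen after seeing the data, gave 2.59, 3.88 and 2.44. Other sizes moved no median level by over 10%. With base 2 or other sizes, also chosen after seeing the data, 4 members and 0 other genes stood higher in cluster 13 than in cluster 2 among those higher in both. Depth is unknown, and levels of 1 library a group have no error.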
